A study of Drosophila melanogaster with 6 samples.

Results

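The odorant-binding protein genes of Drosophila melanogaster were followed here in head tissue from flies aged 3d and 30d. A gene of the count table was a member when its FlyBase symbol began with Obp followed by a digit, which gave 51 of the 17492 genes listed. lush, a gene of the same protein family, has another kind of symbol and is given below among the partners of the family. The study asked how metabolism changes in ageing flies and sequenced polyadenylated RNA from whole heads, with 3 samples of 3d and 3 of 30d. All flies were of line 5905, a w1118 line used as wild type, whose white mutation both ages carry. For ageing, the study collected adult males at eclosion and moved them to new vials as they aged, and the labels give no sex for the RNA samples. Nothing states that the 3 samples of an age came from separate cultures, so that the p-values measure the spread between these samples, which may be technical.

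Odorant-binding proteins are small secreted proteins that carry mostly hydrophobic molecules through aqueous fluid. In the antenna and the mouthparts, auxiliary cells at the base of a sensory hair release them into the lymph that bathes the dendrites of olfactory or taste neurons. Some members act in sensing odours, pheromones, bitter compounds or humidity, and others are made outside the sense organs, among them in glia, fat body and the male reproductive tract. A head sample holds antennae, mouthparts, brain, eyes, fat body and muscle together, and in such bulk tissue fewer cells of a type and less RNA per cell cannot be told apart.

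Counts on genes ranged from 3176380 to 3741860 per sample. Levels are counts relative to library size (CPM) after scaling of the libraries by edgeR's TMM method, given as mean ± SD of 3 samples. Of the 51 members, 42 had at least 1 count and 9 had none. edgeR's filter, which asks here for about 2.85 CPM in 3 samples, left 25 members for testing among 8773 genes. The other 26 were not tested, and the most abundant of these, Obp56e, had 56 counts over the 6 samples. Obp56a reached that level in 1 of 3 samples at 3d and Obp83ef in 2 of 3, while both reached it in all 3 samples at 30d, so that their passing rested on the older age.

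Exon overlap limited what the counts could show for some members. Reads were counted without regard to strand and a read lying wholly within exons of more than 1 gene was given to none, so reads from shared exon bases are mostly lost. In the annotation, 14 members shared exon bases with another gene and 7 shared more than 80% of theirs, none of which was tested. Obp50b and Obp50c have identical exons (chr2R:14371186-14373006), Obp47b lies wholly within exons of CG7741, and Obp57d, a taste gene, within those of Cpr57A. These 4 had no count in any sample, as had Obp93a, of whose exon bases 83.2% were shared with CG5793. Obp84a, an antennal member also known as PBPRP4, shared 81.2% with Dtwd2 and had 0, 3 and 3 counts at 3d and 2, 3 and 9 at 30d. Counts of these genes therefore say little of their RNA. The other 4 members without a count, Obp46a, Obp50a, Obp50d and Obp85a, shared no exon base, and 0 of the 20934580 counts allows a level of up to 0.143 CPM over the 6 samples, for counting error only. Among the tested members 6 shared exon bases, at most 22.2% in Obp59a, followed by 19.1% in Obp44a, whose shared bases lie in exons of Pabp2.

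**Figure D1:**
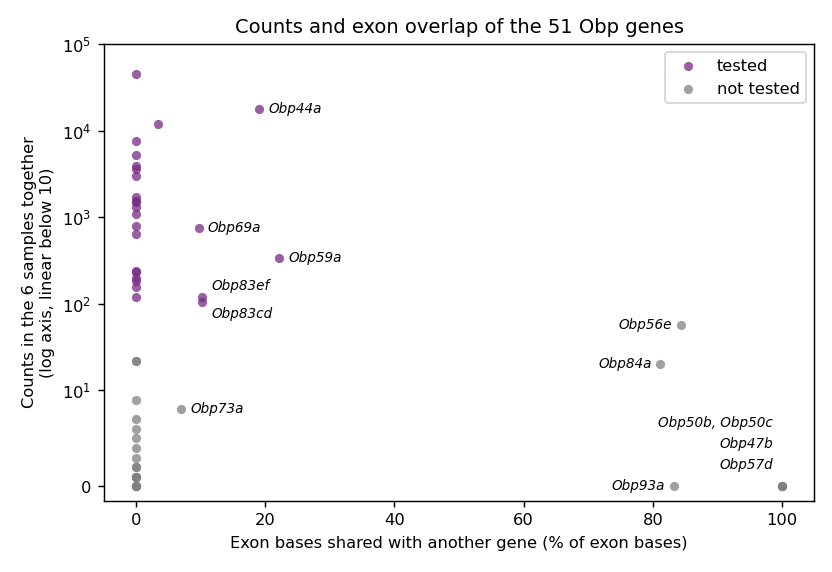
Each point is 1 of the 51 Obp genes, with the percentage of its exon bases shared with another gene on the horizontal axis and its counts summed over the 6 samples on the vertical axis (log, linear below 10). The 7 genes beyond 80% were not tested, and 5 of them had no count, while the tested genes lie at 22.2% or less.

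Most of the family's RNA came from a few genes. The members together took between 14028 and 20813 counts of a library, or 0.442% to 0.564% of it. Obp19d, also known as PBPRP2 and found in antennal sensilla as well as beneath the cuticle, alone made up 36.4% to 40.0% of the family's counts at 3d and 42.5% to 45.2% at 30d. Obp44a, a secreted fatty-acid binding protein of glia in the central nervous system, took 18.9% to 21.3% at 3d and 11.5% to 14.1% at 30d. Both of these shares were apart between the ages in every sample. The summed level of the family was 5159 ± 539 CPM at 3d and 5300 ± 347 CPM at 30d, a difference smaller than the SD.

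Levels of different genes were compared per kilobase of exon. At 3d the order began with Obp19d at 1817 ± 265 CPM per kilobase, Obp44a at 963.5 ± 88.0 and Obp99c at 762.4 ± 31.4. Obp83b at 376 ± 77.8, Obp56d at 333 ± 28.1 and Obp83a at 314 ± 46.4 followed, and these 3 neighbours lay within the SD of Obp83b. At 30d Obp19d was still first at 2120 ± 203 CPM per kilobase, but Obp99c at 920.5 ± 41.3 stood above Obp44a at 637 ± 58.5. Obp56d came next at 445.5 ± 15.1 and Obp99b at 376 ± 41.6 moved from place 9 to place 5. Obp56a moved from place 25 to place 17, the furthest of the tested members.

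**Figure D2:**
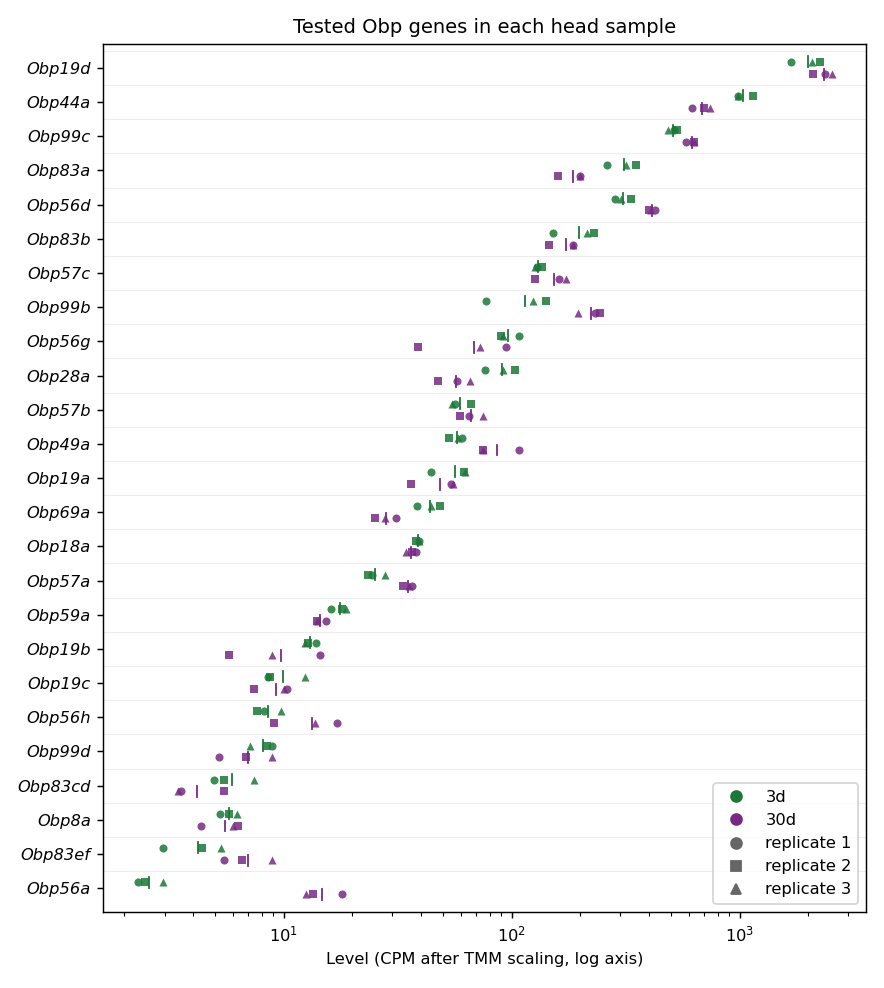
Level of each of the 25 tested Obp genes in each sample, as CPM after TMM scaling on a log axis, with 3d samples in green above 30d samples in purple, a mark shape for each replicate and a vertical bar at the mean of each age. The genes run from Obp19d at 2000 ± 291 CPM at 3d to Obp56a at 2.57 ± 0.347 CPM, and the ages stand apart most widely in Obp56a.

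With age, members moved in both directions. By the quasi-likelihood test of edgeR, at a threshold of 0.05 on the p-value after Benjamini-Hochberg adjustment across the genes tested, 10 of the 25 members changed (40.0%), beside 30.4% of all genes. Obp56a, Obp99b, Obp49a, Obp57a, Obp56d and Obp99c were higher at 30d, 6 of 25 beside 14.4% of all genes. Among them Obp56a passed the filter only through its 30d samples. Obp83a, Obp28a, Obp69a and Obp44a were lower, 4 of 25 beside 16.1% of all genes. The 3 samples of one age all lay above those of the other in 13 members, 7 higher and 6 lower at 30d, beside 44.8% of all genes. The median log2 fold change of the tested members was -0.10 and that of all genes tested 0.02. The members are short, with a median of 645 exon bases against 2248 for all genes tested. Across genes the log2 fold change fell with length, at a slope of -0.08 per log2 of exon bases. With the length trend of each library removed, the median was -0.19 for the members and 0.01 for all genes. In that setting 4 of 25 members were called higher and 5 lower, beside 1247 and 1303 of 8699 genes. The family was not tested as a group, and the account that follows is of single genes.

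**Figure D3:**
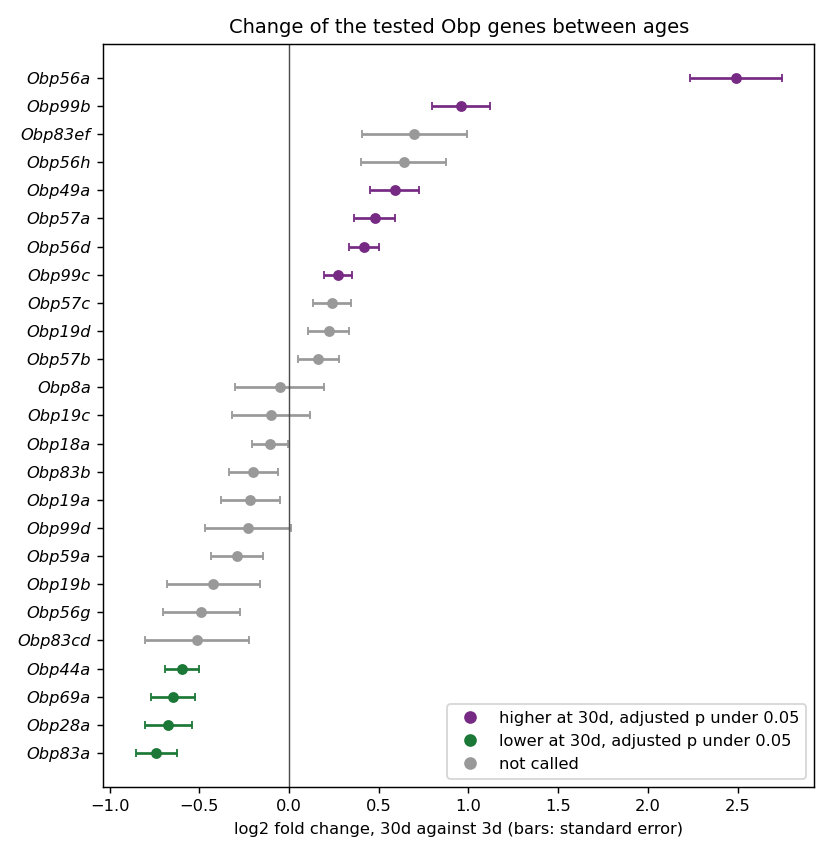
log2 fold change of each of the 25 tested Obp genes at 30d against 3d, with its standard error as a bar, in purple and green for genes called higher and lower. The 6 higher genes run from 0.27 for Obp99c to 2.49 for Obp56a and the 4 lower genes from -0.74 for Obp83a to -0.60 for Obp44a.

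Among members known from sensilla of the antenna, 8 of 9 were tested, with a median log2 fold change of -0.25. Of these 8, 3 were lower at 30d and 1 was higher, beside 16.1% and 14.4% of all genes. Obp83a (chr3R:5972155-5975245), also known as OS-F and found in the lymph of pheromone-sensing and related hairs, was at 261, 351 and 318 CPM at 3d and at 199, 160 and 199 CPM at 30d. Every 30d sample lay below every 3d sample. Its mean went from 310 ± 45.7 to 186 ± 22.7 CPM (log2 fold change -0.74, SE 0.12, adjusted p = 0.000514 by edgeR). Its neighbour and close paralog Obp83b (chr3R:5976177-5976817), or OS-E, was at 152, 229 and 214 CPM at 3d and 187, 146 and 187 CPM at 30d. These ranges overlapped, and the log2 fold change of -0.20 (SE 0.14) did not pass the test (adjusted p = 0.301 by edgeR). Without 3d replicate 1, the lowest of its age, Obp83b passed, at -0.36 (adjusted p = 0.0248 by edgeR). It was at -0.08 without 3d replicate 2 and at -0.09 without 30d replicate 2 (adjusted p = 0.722 and 0.702 by edgeR).

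Within an age, the ratio of the paralogs spread less than either level did. The ratio of Obp83a to Obp83b counts was 1.72, 1.53 and 1.49 at 3d and 1.07, 1.09 and 1.07 at 30d. The ages did not overlap, and the mean went from 1.58 ± 0.124 to 1.08 ± 0.0145, a log2 difference of -0.55. The exact two-sided permutation test gave p = 0.1, the smallest that 3 samples against 3 allow. This ratio was chosen after the values of both genes were seen.

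Obp28a and Obp69a, known as PBPRP5 and PBPRP1, were the other antennal members that fell. Obp28a (chr2L:7496791-7497365) was at 76.2, 103.5 and 91.3 CPM at 3d and at 57.5, 47.3 and 65.8 CPM at 30d, with no overlap. Its log2 fold change was -0.67 (SE 0.13, adjusted p = 0.00222 by edgeR). Obp69a (chr3L:12396171-12396957) was at 38.4, 48.3 and 44.5 CPM at 3d and at 31.1, 25.2 and 27.8 CPM at 30d, again with every old sample below every young one. Its log2 fold change was -0.65 (SE 0.12, adjusted p = 0.00169 by edgeR), and 9.71% of its exon bases are shared with CG32104.

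Obp56d (chr2R:19702924-19703915) was the antennal member that rose. It was at 284.5, 335 and 302 CPM at 3d and at 426, 399 and 407 CPM at 30d, without overlap, a log2 fold change of 0.42 (SE 0.08, adjusted p = 0.00226 by edgeR). Obp19d was at 1679, 2249 and 2072 CPM at 3d and at 2371, 2094 and 2537 CPM at 30d, ranges that overlapped. Its log2 fold change of 0.22 did not pass (SE 0.11, adjusted p = 0.164 by edgeR). Obp19a (-0.22) and Obp59a (-0.29), the latter needed for sensing humidity, did not pass either, although the 30d samples of Obp59a, at 14.0 to 15.3 CPM, all lay below the 3d samples at 16.1 to 18.7 CPM.

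The antennal members shared a pattern among libraries of the same age. All 8 tested antennal members were lowest of their age in both 3d replicate 1 and 30d replicate 2, which held for 9 of the 25 tested members, with Obp19c as the ninth, and for 10.7% of all genes tested. Orco, the co-receptor of odorant receptors in olfactory neurons, was also lowest in these libraries, at 72.3 CPM against 94.8 and 94.8 CPM at 3d, and at 60.7 CPM against 77.1 and 79.3 CPM at 30d. The list of 10 marker genes of antennal neurons, odorant receptors and hearing-organ channels, had summed levels of 101.5 to 129 CPM at 3d and 84.5 to 110 CPM at 30d, of which Orco was the greater part. The other 9 markers summed to 29.2, 34.1 and 27.0 CPM at 3d and to 30.5, 23.8 and 30.9 CPM at 30d, so that without Orco the 30d library was still the lowest of its age and the 3d library was not. Of the 10 markers 7 were tested and 0 were called by edgeR, DESeq2 or limma-voom, while 1, Orco, had an unadjusted p under 0.05 in edgeR. Over all genes tested edgeR called 30.4%. Without both libraries, a choice made after the data were seen, 11 of 25 members were called, beside 1535 of 8830 genes tested. Obp83a was then at -0.75, Obp28a at -0.66, Obp69a at -0.66 and Obp56d at 0.39, all 4 of which passed. The part of antennal tissue in these differences was not tested.

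Counts of each antennal member were therefore also set against those of Orco in the same library. Orco itself was at 87.3 ± 13.0 CPM at 3d and 72.4 ± 10.1 CPM at 30d and did not pass (log2 fold change -0.28, adjusted p = 0.118 by edgeR). Per Orco count, Obp83a was at 3.61, 3.71 and 3.35 at 3d and at 2.58, 2.63 and 2.51 at 30d. Its spread shrank from 14.8% and 12.2% of the mean as CPM to 5.18% and 2.38% as a ratio, at 3d and 30d, and the ages did not overlap. Obp28a per Orco count was at 1.06, 1.09 and 0.963 at 3d and at 0.746, 0.779 and 0.830 at 30d, and Obp69a went from 0.504 ± 0.0320 to 0.389 ± 0.0342, both also without overlap. The spread did not shrink in every antennal member, since that of Obp56d was 8.43% and 3.38% as CPM but 10.6% and 12.9% as a ratio, and that of Obp59a was 7.61% and 5.10% but 8.45% and 13.2%. On this scale the log2 differences were -0.46 for Obp83a, -0.40 for Obp28a and -0.37 for Obp69a.

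Obp19d stood the other way. Per Orco count it was at 23.2, 23.7 and 21.9 at 3d and at 30.8, 34.5 and 32.0 at 30d, a log2 difference of 0.50 with no overlap, whereas its CPM values overlapped. Obp56d per Orco count went from 3.55 ± 0.378 to 5.75 ± 0.742, a log2 difference of 0.69. Obp83b (0.09), Obp19a (0.05) and Obp59a (-0.02) overlapped between the ages on this scale. The ratios share the Orco counts of each library, were chosen after the data were seen, and are given without a test.

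**Figure D4:**
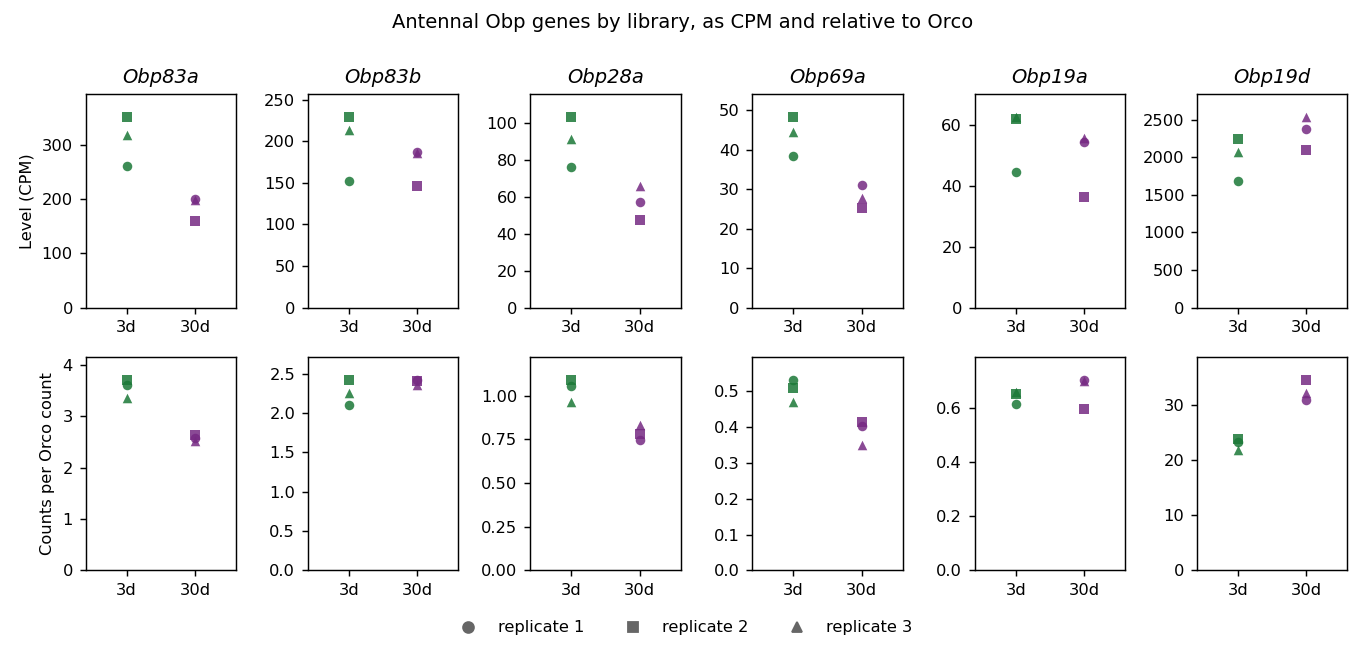
Levels of 6 antennal Obp genes in each library, as CPM in the upper panels and as counts per Orco count in the lower panels, with 3d in green, 30d in purple, a mark shape for each replicate and all axes from 0. Relative to Orco the replicates of Obp83a lie closer, from 3.35 to 3.71 at 3d and from 2.51 to 2.63 at 30d, and the ages of Obp19d come apart.

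Of 5 members known from taste sensilla, 3 were tested and 1 was called (33.3%, beside 30.4% of all genes). Their median log2 fold change was -0.42. Obp49a (chr2R:12690059-12690955), through which bitter compounds suppress the response to sugar, was at 60.4, 53.3 and 58.4 CPM at 3d and at 108, 75.2 and 75.2 CPM at 30d. All 30d samples were higher, 30d replicate 1 most of all, and the log2 fold change was 0.59 (SE 0.14, adjusted p = 0.00586 by edgeR). It was 0.39 without 30d replicate 1 and still passed. Obp56g was at 108, 89.6 and 91.9 CPM at 3d and spread widely at 30d, at 94.3, 38.8 and 72.7 CPM, so that its log2 fold change of -0.49 did not pass (adjusted p = 0.107 by edgeR). Without 30d replicate 1 it passed at -0.79 (adjusted p = 0.00813 by edgeR), and without 30d replicate 2 it was at -0.20 (adjusted p = 0.294 by edgeR). Obp19b had the same order of the 30d samples, at 14.4, 5.74 and 8.87 CPM, beside 12.5 to 13.8 CPM at 3d, and passed only without 30d replicate 1 among the libraries left out, at -0.83 against -0.42 (adjusted p = 0.0175 and 0.245 by edgeR). Without 30d replicate 2 it was at -0.15 (adjusted p = 0.680 by edgeR), and without 3d replicate 1 and 30d replicate 2 Obp56g was at -0.12 and Obp19b at -0.11. Obp57e, which with Obp57d shapes the response to fatty acids of host fruit in Drosophila species, had 22 counts and was not tested.

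The members that moved most are not on the sensillum lists. Obp56a (chr2R:19697723-19698508) had 7, 9 and 10 counts at 3d and 66, 49 and 44 at 30d, or 2.57 ± 0.347 and 14.7 ± 2.91 CPM. The ages were far apart, with a 5.63-fold higher level at 30d (log2 fold change 2.49, SE 0.26, adjusted p = 3.6e-05 by edgeR). It entered the test only through its 30d samples, since 1 of 3 samples at 3d reached the filter level. Its p-value carries that limit, and with at least 10 counts asked of every sample it was not tested.

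Obp99b (chr3R:29716254-29716896), older name tsx and known from the fat body of male heads, was at 77.5, 142 and 124 CPM at 3d and at 231, 244 and 196 CPM at 30d. The ages did not overlap, and 3d replicate 1 was the lowest sample (log2 fold change 0.96, SE 0.16, adjusted p = 0.000846 by edgeR). Without 3d replicate 1 and 30d replicate 2 the log2 fold change was 0.68 and still passed. Among 6 fat body markers 5 were tested, Apoltp (0.34) and Tsf1 (0.88) were higher at 30d, and apolpp (0.28), FASN1 (0.23) and Lsp2 (-0.78) did not pass. For all genes the share called higher was 14.4%. The summed level of the list was 9790 to 11050 CPM at 3d and 12420 to 15300 CPM at 30d, and Pepck1 of that list was at 0 in all samples. Within 3d the markers did not share the order of Obp99b. Tsf1, a transferrin, was lowest in replicate 1, at 1990 CPM against 3080 and 3175 CPM, while FASN1, the fatty acid synthase, was highest there, at 2554 CPM against 1735 and 2290 CPM, and Apoltp was at 324, 322 and 353 CPM. The part of fat body RNA in the change of Obp99b was not tested.

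Obp99c (chr3R:29685736-29689311), near Obp99b in the genome, was at 514, 529 and 487.5 CPM at 3d and at 584, 630 and 633 CPM at 30d. The difference was small but even, with a log2 fold change of 0.27 (SE 0.08, adjusted p = 0.0180 by edgeR). It did not pass without 3d replicate 3, 30d replicate 2 or 30d replicate 3, at log2 fold changes of 0.24, 0.26 and 0.25. With the trend of each library with transcript length removed the log2 fold change was 0.15 and did not pass.

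Obp57a (chr2R:20505150-20505758) was at 24.3, 23.5 and 27.9 CPM at 3d and at 36.5, 33.4 and 35.5 CPM at 30d, without overlap. Its log2 fold change was 0.48 (SE 0.11, adjusted p = 0.00725 by edgeR). Its call was lost in DESeq2's Wald test, where the log2 fold change was still 0.47 (adjusted p = 0.0801), and with the length trend removed, where it was 0.33 (adjusted p = 0.0570 by edgeR). The adjacent Obp57c and Obp57b, whose 3d and 30d samples overlapped, had log2 fold changes of 0.24 and 0.16 and did not pass, although Obp57c passed without 30d replicate 2, at 0.36 (adjusted p = 0.0153 by edgeR), and was at 0.14 without 30d replicate 3 (adjusted p = 0.375 by edgeR).

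Obp44a (chr2R:8134170-8135315), the glial member, fell. It was at 983.5, 1146 and 981 CPM at 3d and at 618, 696 and 743 CPM at 30d, with a wide gap between the ages. The log2 fold change was -0.60 (SE 0.10, adjusted p = 0.000599 by edgeR). Of 10 glial markers, 2 were higher at 30d and 5 lower, beside 14.4% and 16.1% of all genes. These 10 markers had a median log2 fold change of -0.25 and summed levels of 3967 to 4672 CPM at 3d and 3169 to 3254 CPM at 30d. Among them Gat and Eaat1, transporters that clear transmitters into glia, were lower (log2 fold changes -0.99 and -0.57), repo, the transcription factor of glia, was at 0.17 and did not pass, and wrapper, a surface protein of glia, was higher (0.62). The part of these markers in the change of Obp44a was not tested.

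The remaining tested members did not pass. Obp56h, which acts in male mating behaviour, was at 7.65 to 9.78 CPM at 3d and 9.03 to 17.2 CPM at 30d (log2 fold change 0.64, adjusted p = 0.0579 by edgeR). It passed without 30d replicate 2, at 0.86 (adjusted p = 0.0120 by edgeR), and was at 0.41 without 30d replicate 1 (adjusted p = 0.236 by edgeR). Obp83ef had 9, 16 and 18 counts at 3d and 20, 24 and 31 at 30d, which as CPM did not overlap, and a log2 fold change of 0.70 (SE 0.29, adjusted p = 0.0879 by edgeR). Its neighbour Obp83cd, with which it shares 10.2% of its exon bases, was at -0.51 (SE 0.29). Obp18a was at 38.2 to 39.4 CPM at 3d and at 34.3 to 37.9 CPM at 30d, apart but with a log2 fold change of only -0.11 that did not pass. Obp99d (-0.23), Obp19c (-0.10) and Obp8a (-0.05) had fold changes within 1 SE of 0. Of 7 members known from the male accessory gland or seminal fluid, 2 were tested, Obp56g and Obp8a, and 0 were called by edgeR, DESeq2 or limma-voom, with Obp56g at an unadjusted p under 0.05 in edgeR (0.0418). Over all genes tested edgeR called 30.4%. The 9 accessory gland markers were too scarce for the test, at a summed 4.93 to 8.59 CPM at 3d and 0 to 1.09 CPM at 30d.

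Calls were also counted by position in the genome. Among all genes tested, 30.4% were called, 14.4% higher and 16.1% lower. With a gap of up to 50000 bases, 36 members fell into 9 clusters and 15 stood alone, in coordinates of the BDGP6.54 annotation, which are those of dm6. In the cluster of Obp56a to Obp56f (chr2R:19697723-19713976) both tested genes, Obp56a and Obp56d, rose. Of these Obp56a passed the filter only through its 30d samples, where it was high, and the other 4 genes were not tested. In the Obp99 cluster (chr3R:29671657-29716896) 2 of 3 tested genes rose, and in the Obp57 cluster (chr2R:20503584-20550117) 1 of 3, with all 3 fitted higher. The calls of Obp99c and Obp57a were lost in some alternatives, as given above. Whether neighbours differed from each other in their change was not tested, apart from the ratio of Obp83a to Obp83b given above. In the pair of Obp83a and Obp83b 1 fell and both were fitted lower, and of the 4 genes Obp19a to Obp19d (chrX:20415744-20420979), which include the most abundant member, 0 were called by edgeR, DESeq2 or limma-voom and 0 had an unadjusted p under 0.05 in edgeR.

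Of 11 other genes of odour detection, all were tested and 4 were called (36.4%, beside 30.4% of all genes). Of these 1 was higher at 30d and 3 were lower, beside 14.4% and 16.1% of all genes, and the median log2 fold change was -0.28. lush, the family member needed to detect the male pheromone cVA, was at 48.3, 63.9 and 60.5 CPM at 3d and at 45.5, 34.7 and 43.2 CPM at 30d, without overlap (log2 fold change -0.49, SE 0.13, adjusted p = 0.0129 by edgeR). Jhedup, an antennal esterase, and Amt, the ammonium transporter of antennal auxiliary cells, were lower too, at -0.44 and -0.49. Est-6, an esterase made in the antenna and elsewhere, was higher, at 0.32. Per Orco count lush went from 0.660 ± 0.0197 to 0.569 ± 0.0226, a log2 difference of -0.21. Snmp1, the membrane protein that works with lush in pheromone detection, was at 63.9 ± 8.18 and 64.8 ± 5.78 CPM, a log2 fold change of 0.02 that did not pass.

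The chemosensory proteins, a separate family of small secreted binding proteins, moved in both directions as well, 2 of 4 higher and 1 lower. For all genes the shares were 14.4% higher and 16.1% lower. Phk-3 was at 11.8, 17.8 and 15.7 CPM at 3d and at 34.3, 35.0 and 39.8 CPM at 30d, a log2 fold change of 1.25 (SE 0.15, adjusted p = 8.3e-05 by edgeR). EbpIII, first known from the ejaculatory bulb, was higher by 0.51 on the log2 scale, at 1630 ± 137 and 2325 ± 96.0 CPM, and CG30172 was lower, at -0.61. a10, a gene of the antenna, was at 197 ± 33.99 and 175 ± 17.2 CPM and did not pass.

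Markers of the other tissues of the head moved as well. For comparison, 30.4% of all genes tested were called, 14.4% higher and 16.1% lower at 30d. Of 10 muscle markers tested, 9 were lower at 30d, with a median log2 fold change of -1.004, and their summed level was highest in 3d replicate 1, at 5490 CPM against 3642 and 3659 CPM, and 2329 to 2454 CPM at 30d. Of 5 neuronal markers 4 were lower, with a sum of 4698 to 5609 CPM at 3d and 3570 to 3851 CPM at 30d. Of 5 hemocyte markers 3 were higher and 1 was lower, with a sum of 735 to 750.0 CPM at 3d and 764 to 887.5 CPM at 30d. Their part in the levels of the Obp genes was not tested.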

How the data were processed

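RNA was measured in heads of 3d and 30d flies, 3 samples each, grouped by the condition in the labels. The authors selected poly(A) RNA, sequenced single ends, mapped reads to dm6 with STAR and counted reads per gene with HTSeq in its intersection-strict mode, ignoring strand. The deposited values are raw counts for 17492 genes, with 0 sample columns unused, and the annotation release used for counting is not given in the sources used here. DESeq normalization came after these counts. Symbols, positions and exon overlaps came from the Ensembl annotation BDGP6.54, where 17356 identifiers were found.

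Ages were compared with edgeR 4.0.16 in R 4.3.3: its filter on low counts (minimum 10, by age), TMM scaling, two-sided quasi-likelihood test, Benjamini-Hochberg adjustment over 8773 genes, threshold 0.05. The standard error was the size of a log2 fold change divided by the square root of F. Tables and plots used Python 3.11.15, pandas 2.3.3 and matplotlib 3.10.9. The common biological coefficient of variation was 0.0857, and chi-squared per degree of freedom between replicates was 2.21 to 5.87. Reads carry no molecular identifiers, and the floor of 0.143 CPM covers counting error only. On simulated data with 200 of 8772 genes changed by 1 on the log2 scale, 92.0% were recovered and 3.66% of calls were false. The simulation gave every gene the common dispersion and no deviation shared by genes of a library. All called Obp genes but Obp56a changed by less than 1, so these rates need not hold for them.

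Alternatives were DESeq2 size factors, library size alone, DESeq2 1.42.0, limma-voom 3.58.1, other filters, the replicate number as a block, removal of a transcript length trend, and each sample left out. The omission of 3d replicate 1 and 30d replicate 2, the ratios to Orco and the ratio of Obp83a to Obp83b were chosen after seeing the data. Named were all tested Obp genes, some of the untested ones and some genes of the lists. The lists were antennal, taste and seminal members, odour detection partners, chemosensory proteins, and markers of antenna, muscle, fat body, glia, neurons, hemocytes and accessory gland. Other genes, among them all markers of muscle, neurons, hemocytes and accessory gland, enter only as counts, medians or sums, also where they passed the threshold. Members and lists were chosen with earlier results of these data known.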

Additional observations from a re-analysis of the deposited data

How the results depend on the processing

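Over the alternatives, between 9 and 13 Obp genes were called against 10, and 8 kept their call wherever they were tested: Obp28a, Obp44a, Obp49a, Obp56a, Obp56d, Obp69a, Obp83a and Obp99b. Obp56a was not tested under at least 10 counts in every sample. The number called among all genes also differed between settings, and DESeq2's Wald test called 9 of 29 Obp genes beside 1807 of 10241 genes. Each sample left out in turn gave 9 to 12 Obp genes. Obp8a, near 0, changed sign with library size alone (0.024) and ranged from -0.15 to 0.10 as samples were left out, and Obp19c from -0.19 to 0.10. Library size alone shifted the median of all genes by 0.08 (log2) and put 62.0% of the calls higher at 30d in place of 47.2%. Removal of the length trend gave 9 Obp genes, 4 higher and 5 lower, without Obp57a and Obp99c and with Obp56g. With the replicate block, 13 of 25 Obp genes (8 higher, 5 lower) were called beside 2907 of 8773 genes. The numbers were not shown to pair the samples, since same-numbered samples correlated at 0.143, 0.0167 and 0.0522. Without 3d replicate 1 and 30d replicate 2, 1535 of all genes were called against 2669, with fewer samples. Single samples left out gave 1879 to 2596. Of the 26 untested members, exon overlap limits the 7 that share over 80% of their exon bases, and the other 19 had at most 22 counts each.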
